A study of Mus musculus with 2 samples.

Results

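The genes described here are 10 imprinted growth regulators, H19, Igf2, Dlk1, Meg3, Peg3, Mest, Cdkn1c, Plagl1, Grb10 and Ndn. They were chosen by name, as genes known for high levels in fetal and neonatal mesenchyme, and all 10 were found among the 23233 symbols of the deposited table. The study sorted cells of ventral skin, taken from C57BL/6 mice aged 7 days, by antibody staining for ZIP10, a zinc importer of the cell surface encoded by Slc39a10, into ZIP10-positive and ZIP10-negative cells, called positive and negative cells here. Both populations came from wild-type mice, with no treatment named, and each was sequenced as 1 library of polyadenylated RNA. Titles of both samples name hair follicles as the source, whereas the protocol describes a suspension of whole ventral skin. How many animals stand behind each library, and whether they were pooled, is not given.

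An imprinted gene is transcribed mainly from the copy inherited from one parent, because methylation of CpG sites laid down in egg or sperm marks the copies differently. Many imprinted genes act on growth before and shortly after birth: genes expressed from the paternal copy often promote it, and genes expressed from the maternal copy often restrain it. Their RNA is abundant in embryonic mesenchyme, placenta and muscle and declines in most tissues during the first weeks of life. The deposited values sum both parental copies, so nothing here measures imprinting itself.

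With 1 library per group there was no replicate and no test, and all differences describe these libraries. Values are RPKM, reads adjusted for transcript length and for library size, so that levels can be compared between genes. Intervals are exact 95% counting intervals from estimated read numbers and cover counting error only. Most genes had a higher RPKM in the ZIP10-positive library: the median of 9620 genes at 1 RPKM or more in both libraries had a ratio of 1.97. Globin transcripts accounted for 59.4% of summed RPKM in negative and 3.46% in positive cells. For this reason many counts and ratios are also given relative to that median gene. All other values, ratios and sums are as deposited. Slc39a10 itself stood at 49.4 RPKM in positive against 11.1 RPKM in negative cells, which checks the labels.

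The members with the largest ratios between the libraries, H19 and Meg3, are long non-coding RNAs that enclose microRNA hairpins in the RefSeq annotation (GRCm38.p6). Their mature microRNAs are shown because microRNAs cut from such hosts can act on other transcripts through their seeds. The seed, bases 2 to 8, is in capitals. The first pair lies within H19 and the second within Meg3.
mmu-miR-675-5p: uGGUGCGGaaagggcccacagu
mmu-miR-675-3p: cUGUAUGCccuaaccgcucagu
mmu-miR-770-5p: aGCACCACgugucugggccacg
mmu-miR-770-3p: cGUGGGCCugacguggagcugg
Igf2 and Mest also enclose a hairpin each, Mir483 and Mir335. The 8 mature sequences from these 4 hosts have 8 different seeds. Libraries of polyadenylated RNA measure the host RNA, so the levels of these microRNAs were not measured.

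The start regions of the members at opposite ends of the range, Meg3 and Grb10, are shown with every CpG in capitals. Imprints are carried by methylation of CpG sites, but whether these windows hold the imprint of either gene was not examined. The windows run from 250 bases before to 50 after the annotated start (RefSeq, GRCm38.p6), at chr12:109540746-109541045 on the plus strand for Meg3 and at chr11:12037371-12037670 on the minus strand for Grb10.
Meg3: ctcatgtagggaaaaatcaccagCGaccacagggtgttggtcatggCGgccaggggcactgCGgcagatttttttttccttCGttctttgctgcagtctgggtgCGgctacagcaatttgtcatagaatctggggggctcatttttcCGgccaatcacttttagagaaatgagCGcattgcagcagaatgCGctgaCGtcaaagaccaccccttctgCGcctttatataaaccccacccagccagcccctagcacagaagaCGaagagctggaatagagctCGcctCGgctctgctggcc
Grb10: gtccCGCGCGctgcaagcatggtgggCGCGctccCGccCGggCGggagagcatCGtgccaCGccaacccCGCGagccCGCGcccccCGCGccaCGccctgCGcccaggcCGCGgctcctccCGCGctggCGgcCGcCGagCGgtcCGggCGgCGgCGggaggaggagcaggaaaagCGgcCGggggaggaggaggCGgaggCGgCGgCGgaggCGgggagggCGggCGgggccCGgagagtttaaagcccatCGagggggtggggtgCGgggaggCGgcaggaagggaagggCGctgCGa
The motif searched was CG, which reads the same on both strands. The Meg3 window holds 13 CpG and the Grb10 window 45, against a median of 7 in 32851 windows of the same length, of which 94.6% hold at least 1. As many CpG as in the Grb10 window were found in 1.93% of all windows, and as many as in this Meg3 window in 37.9%. The table holds 15 windows for 8 of the members, and 12 of them lie above the median. Another annotated start of Grb10 holds 9 CpG and another of Meg3 holds 1, and the deposited values do not separate starts. No methylation was measured.

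Levels of the 10 members ranged from 1.56 to 57.0 RPKM in the ZIP10-positive library, with a median of 8.87 RPKM. In the ZIP10-negative library they ranged from 0.77 to 41.6 RPKM, with a median of 8.15 RPKM. All 12249 genes that reached 1 RPKM in either library had medians of 7.02 and 3.58 RPKM. All 10 members passed that limit, and none was listed at 0. The members are known for high levels in neonatal mesenchyme, but not all were high in these mixed cells: Dlk1 exceeded 29.9%, Peg3 25.7% and Plagl1 25.6% of the genes detected in positive cells, whereas Cdkn1c exceeded 88.8% and Ndn 83.7%. H19 led in the ZIP10-positive library, followed by Cdkn1c and Ndn, and each of H19 and Cdkn1c lay above the next gene beyond counting error. In the ZIP10-negative library Cdkn1c led and H19 stood behind Grb10, Igf2 and Ndn. There, counting intervals separated Cdkn1c from Grb10 and H19 from Mest. In each library the other 7 of 9 neighbouring pairs in the order overlapped. These intervals assume the shortest transcript of each gene, and overlap on the longest was not examined.

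**Figure D1:**
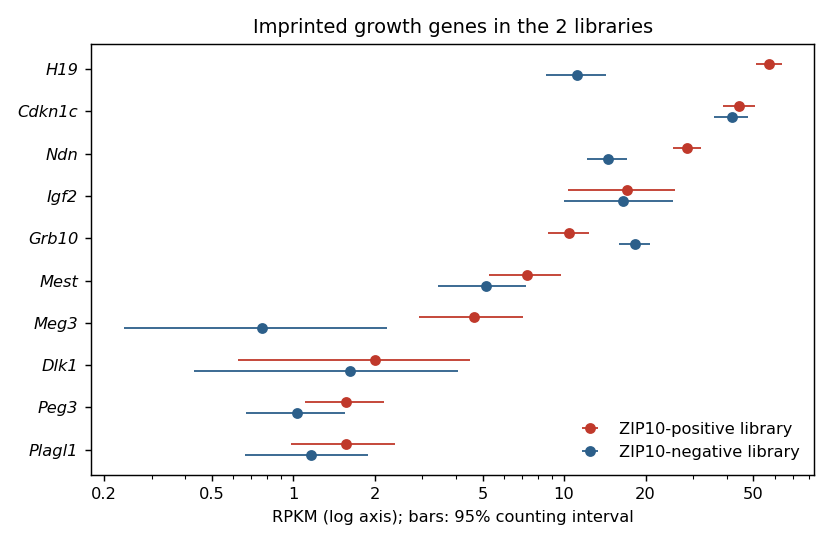
RPKM of the 10 imprinted growth genes (log axis) in the ZIP10-positive (red) and ZIP10-negative (blue) library, 1 library each, with 95% counting intervals from estimated reads on the shortest RefSeq-linked transcript. H19, at 57.0 and 11.1 RPKM, has the widest gap among the abundant members, while Cdkn1c and Igf2 nearly coincide and Grb10 has the reverse order.

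As deposited, 2 of the 10 members, H19 and Meg3, were at least 2-fold higher in positive cells, measured as log2(RPKM + 1), against 44.1% of all 12249 genes. None was at least 2-fold lower, against 3.55% of all genes. Relative to the median gene the same 2 members were at least 2-fold higher, against 14.7% of genes, and 1, Grb10, was at least 2-fold lower, against 11.4%. The median log2 ratio of the members was 0.29 as deposited, beside 0.87 for all genes compared. Relative to the median gene it was -0.36, beside 0.094. There 8 of the 10 members lay below 0, whereas most of all genes compared lay above 0. Scaled to library sums without globin genes and Rn45s, 0 members were 2-fold higher, against 8.99% of all genes, and 3, Grb10, Igf2 and Cdkn1c, were lower, against 19.2%.

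**Figure D2:**
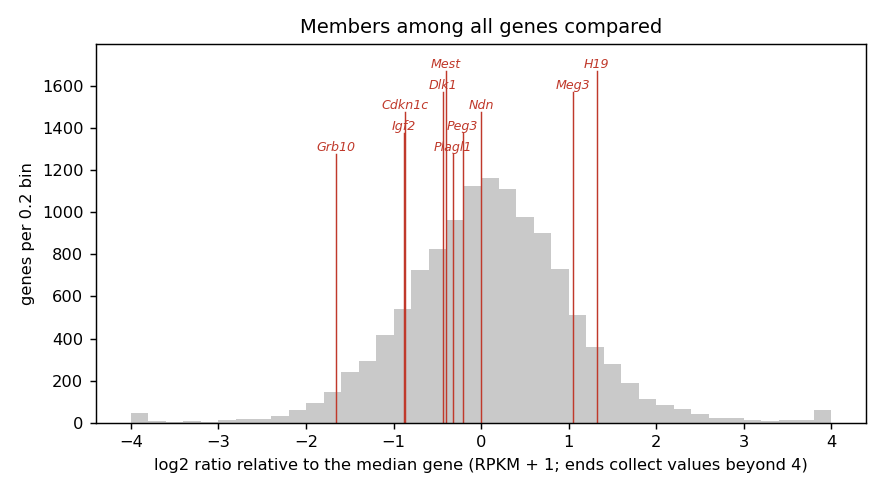
Number of genes per bin of the log2 ratio relative to the median gene (RPKM + 1), for 12249 genes, with the 10 members as red lines. H19 (1.32) and Meg3 (1.05) lie on the right flank, Grb10 (-1.66) on the left, and the remaining members between -0.88 and 0.

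H19 had the widest difference among the abundant members. This maternally expressed non-coding RNA is one of the most abundant transcripts of the embryo and is known to restrain growth. It stood at 57.0 RPKM in positive against 11.1 RPKM in negative cells, a ratio of 5.11 with a counting interval of 3.90 to 6.82. This interval lay wholly above the ratio of the median gene, and relative to that gene H19 was 2.59-fold higher. Among all genes compared, 6.16% had a larger log2 ratio. H19 exceeded 91.1% of the genes detected in the ZIP10-positive library, and 80.3% of those in the ZIP10-negative library. Its log2 ratio fell short of 2-fold, at 0.92, when the libraries were scaled to their sums without globin genes and Rn45s.

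Igf2, which lies next to H19 and shares its enhancers, encodes the insulin-like growth factor 2, a circulating and local growth factor expressed from the paternal copy. It stood at 17.0 RPKM in positive against 16.5 RPKM in negative cells, a ratio of 1.03, or 0.52 relative to the median gene. Igf2 thus had nearly equal RPKM where its neighbour differed 5.11-fold. Its annotated transcripts run from 650 to 4722 bases, and the counting interval was 0.53 to 1.99 on the shortest and 0.84 to 1.25 on the longest. The first interval reached just past the ratio of the median gene and the second lay below it. Within a library, where scaling between libraries cancels, H19 stood at 3.35 times Igf2 in ZIP10-positive and 0.67 times Igf2 in ZIP10-negative cells. The quotient of these was 4.97, with an exact conditional counting interval of 2.41 to 10.3 on the shortest transcripts and 3.54 to 7.05 on the longest. Ins2, on the other side of Igf2, and the antisense gene Igf2as were listed at 0 in both libraries. Whether counting used strand is not given.

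Meg3 and Dlk1 form a second such pair, on chromosome 12. Meg3 is a maternally expressed non-coding RNA, and Dlk1 is the paternally expressed transmembrane protein, also called preadipocyte factor 1, that restrains fat cell differentiation. Meg3 stood at 4.65 RPKM in positive against 0.77 RPKM in negative cells, a ratio of 6.04, or 3.07 relative to the median gene. On its shortest RefSeq-linked transcript, of 1896 bases, this rests on about 22 and 4 reads. The interval there, 1.82 to 21.4, includes the ratio of the median gene, while on the longest transcript it was 4.07 to 9.17. With a pseudocount of 5 its log2 ratio fell short of 2-fold, at 0.74 as deposited and 0.45 relative to the median gene. Dlk1 was low in both libraries, at 1.997 and 1.63 RPKM, a ratio of 1.23 with an interval of 0.26 to 6.15. These values rest on about 5 and 4 reads on the shortest transcript. On the longest they rest on about 25 and 20 reads, with an interval of 0.65 to 2.32. A difference in Dlk1 between the libraries was not detectable at this depth on either length. Meg3 stood at 2.33 times Dlk1 in ZIP10-positive and 0.47 times Dlk1 in ZIP10-negative cells. The quotient was 4.92. Its interval included 1 on the shortest transcripts, at 0.57 to 32.3, and did not on the longest, at 2.28 to 10.5.

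Other genes of the same chromosome 12 cluster were at low levels. Rian, a non-coding RNA downstream of Meg3 that is also expressed from the maternal copy, stood at 1.92 against 0.33 RPKM. Its ratio of 5.85 equals 6 reads to 1 after the depth difference between the libraries, and on those numbers the interval was 0.71 to 269. Rtl1, Mirg and Dio3 were listed at 0 in both libraries.

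**Figure D3:**
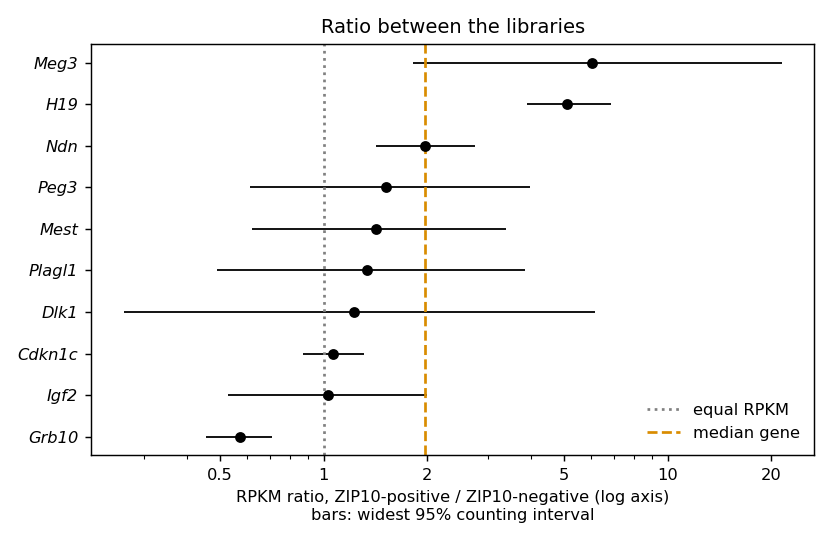
Ratio of RPKM between the ZIP10-positive and ZIP10-negative library for each member (log axis), with the widest 95% counting interval found for it, from the shortest transcript or the fewest whole reads. The dotted line marks equal RPKM and the dashed line the median gene at 1.97: H19 lies wholly above the dashed line, Cdkn1c and Grb10 wholly below it, and 7 intervals include it.

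Among the members that restrain growth inside the cell, Cdkn1c had almost the same RPKM in both libraries. It encodes p57, an inhibitor of cyclin-dependent kinases that holds cells in G1 and is expressed from the maternal copy. Cdkn1c stood at 44.3 RPKM in positive against 41.6 RPKM in negative cells, a ratio of 1.07 with an interval of 0.87 to 1.31. The whole interval lay below the ratio of the median gene, and 80.6% of all genes compared had a larger log2 ratio. In the ZIP10-negative library Cdkn1c exceeded 94.2% of the detected genes and was the most abundant of the members. As deposited, its non-imprinted relatives differed more between the libraries. Cdkn1a, which encodes p21, stood at 60.6 against 19.3 RPKM, and Cdkn1b, which encodes p27, at 36.5 against 14.97 RPKM. Relative to the median gene Cdkn1c lay furthest from 0 on the log2 scale, at -0.87, with Cdkn1a at 0.65 and Cdkn1b at 0.30. In ZIP10-negative cells Cdkn1c was 2.15 times as high as Cdkn1a and 2.78 times as high as Cdkn1b. In ZIP10-positive cells Cdkn1a exceeded it, at 1.37 times Cdkn1c. The quotients were 2.94 for Cdkn1a, with an interval of 1.91 to 4.56, and 2.29 for Cdkn1b, with an interval of 1.65 to 3.18.

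Grb10 was the only member with a lower RPKM in ZIP10-positive cells. It encodes an adaptor protein that binds the insulin and IGF1 receptors and dampens their signal, and outside neurons it is expressed mainly from the maternal copy. Grb10 stood at 10.4 RPKM in positive against 18.3 RPKM in negative cells, a ratio of 0.57 with an interval of 0.46 to 0.71. It was 1.75-fold lower as deposited and 3.45-fold lower relative to the median gene, and 94.8% of all genes compared had a larger log2 ratio. Its relatives Grb7 and Grb14, adaptors of the same family that are not members here, had a higher RPKM in positive cells. They stood at 8.52 against 5.71 RPKM and 9.19 against 2.93 RPKM. The interval of the Grb7 ratio, 0.95 to 2.37, included equal RPKM, while that of Grb14, 1.73 to 6.31, did not. Relative to the median gene Grb7 lay below 0, at -0.35 on the log2 scale, and Grb14 above it, at 0.56. Grb14 was 6.24-fold below Grb10 in ZIP10-negative cells and 1.14-fold below it in ZIP10-positive cells. The quotient was 5.49 for Grb14, with an interval of 2.89 to 11.5, and 2.61 for Grb7, with an interval of 1.57 to 4.38.

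Ndn followed the median gene. It encodes necdin, a protein of the MAGE family linked to growth arrest, and is expressed from the paternal copy. Ndn stood at 28.5 RPKM in positive against 14.5 RPKM in negative cells. The ratio of 1.97 equals 115 reads to 57 after the depth difference, and the interval from these numbers was 1.42 to 2.75. Its relatives Maged1 and Maged2 had almost the same ratio, with quotients against Ndn of 1.06 (0.81 to 1.38) and 1.02 (0.73 to 1.45). Its neighbour Magel2 was listed at 0 in both libraries, and Mkrn3 stood at 0.15 and 0.47 RPKM.

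Mest, Peg3 and Plagl1, all expressed from the paternal copy, had ratios between those of Igf2 and Ndn. Mest encodes a membrane enzyme of the hydrolase fold family known from expanding fat tissue and embryonic mesoderm, and stood at 7.30 and 5.15 RPKM. Its ratio of 1.42 equals 16 reads to 11, and the interval from these fewest whole reads was 0.62 to 3.38. Copg2, which overlaps Mest in the annotation and encodes a coat protein of transport vesicles, stood at 23.7 and 12.5 RPKM.

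Peg3, a zinc finger protein of mesenchymal progenitors, stood at 1.57 RPKM in positive against 1.03 RPKM in negative cells. Its ratio of 1.52 equals 14 reads to 9, with an interval of 0.61 to 3.97. Its neighbour Usp29 was listed at 0 in both libraries. Plagl1, a zinc finger transcription factor also called Zac1 that is known to regulate other imprinted genes, H19 and Igf2 among them, stood at 1.56 and 1.16 RPKM. Its ratio of 1.34 equals 11 reads to 8, with an interval of 0.49 to 3.84. For all of Mest, Peg3 and Plagl1 the interval included both equal RPKM and the median gene, so neither a difference nor its absence can be read from them. The relatives of Plagl1 stood at 0.89 against 0.25 RPKM for Plag1 and 5.80 against 2.55 RPKM for Plagl2, and Dlk2 at 4.33 against 1.11 RPKM. Both quotients against Plagl1, and that of Dlk2 against Dlk1, had intervals that included 1.

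Across the 5 members with measured relatives, the 9 relatives had a larger ratio between the libraries than their imprinted family member. Of all genes compared, 80.6% had a larger log2 ratio than Cdkn1c, 94.8% than Grb10, 77.5% than Dlk1, 75.7% than Plagl1 and 47.3% than Ndn. Nothing particular to the families can be read from this count. For 4 of the 9, the relatives of Cdkn1c and Grb10, the interval of the quotient lay above 1, on the shortest transcripts and on the longest. Because the quotient is formed within each library, it does not depend on how the libraries were scaled.

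**Figure D4:**
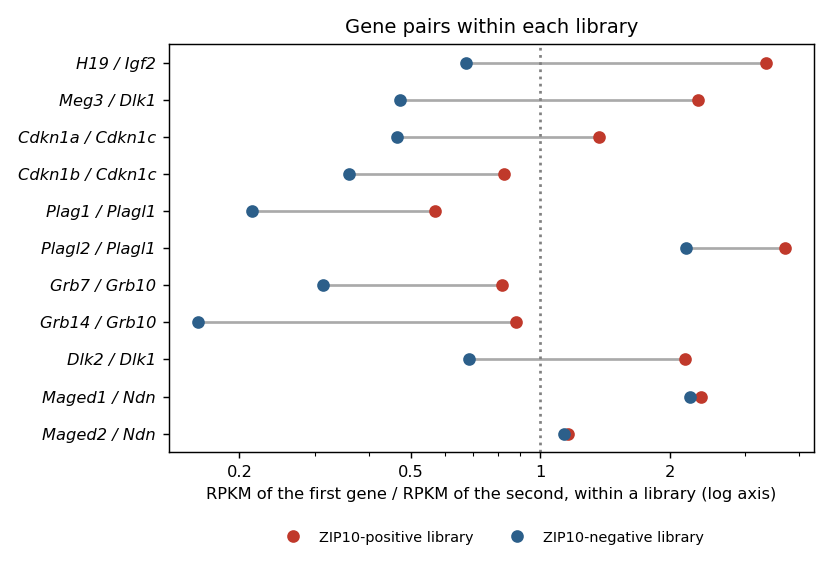
RPKM of one gene divided by that of another within each library (log axis), for the neighbours H19 and Igf2, and Meg3 and Dlk1, and for 9 relatives against their imprinted family member. Red points (ZIP10-positive) lie to the right of blue points (ZIP10-negative) in every pair, by 4.97-fold for H19 and Igf2 and by 1.02-fold for Maged2 and Ndn.

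Grouped by the parental copy they are known to be expressed from, the 4 maternally expressed members spanned the whole range of ratios, from 0.57 for Grb10 to 6.04 for Meg3. The 6 paternally expressed members lay within a narrower range, from 1.03 for Igf2 to 1.97 for Ndn. None exceeded the median gene, but the widest interval of each of the 6 included it. Grouped by product, the 2 non-coding RNAs had the largest ratios. The 8 protein-coding members all lay below the median gene, whereas most of all genes compared lay above it. Among these 8, only the widest intervals of Cdkn1c and Grb10 lay wholly below it.

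Other imprinted genes were listed for comparison. Of 48, 47 were in the table, 15 were listed at 0 in both libraries, and 21 reached 1 RPKM in a library. As deposited, 9 of these 21 were 2-fold or more higher, against 44.1% of all genes compared, and 0 lower, against 3.55%. With the median gene as zero point, 5 were higher, against 14.7% of all genes, and 1 was lower, against 11.4%. Of the 21, 5 were listed at 0 in ZIP10-negative cells, where a 0 can be a failed estimate. For example, Psmg4, a broadly expressed gene, had 69.5 RPKM in positive cells and a listed 0 in negative cells. The median log2 ratio of all 21 was -0.056 relative to the median gene, beside 0.094 for all genes compared, with 9 above 0 and 12 below. For the 16 above 0 in both libraries it was -0.52, with 4 above 0 and 12 below. Of these 16, 1 was 2-fold higher and 1 lower on that scale. The 11 paternally expressed of the 21 had a median of 0.16, with 6 above 0, and 4 of the 11 were listed at 0 in negative cells. The 10 maternally expressed had a median of -0.26, with 3 above 0, and 1 of the 10 was listed at 0 in negative cells.

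The most abundant of these was Gnas, which encodes the stimulatory G protein subunit, at 493 against 355 RPKM. Commd1, a regulator of copper export and NF-kappaB, stood at 77.2 against 54.6 RPKM. H13, a signal peptide peptidase gene, was the one with both values above 0 that passed 2-fold above the median gene, at 36.6 against 6.59 RPKM, a ratio of 5.55 with an interval of 3.29 to 10.7. Mcts2, which lies within an intron of H13 and has a near-identical relative, had 16.4 RPKM against a listed 0 in negative cells, an uncertain value. Among the paternally expressed genes Sgce, epsilon-sarcoglycan, stood at 20.2 against 9.13 RPKM and Slc38a4, an amino acid transporter, at 8.48 against 2.17 RPKM. Osbpl5, a lipid transfer protein gene near Cdkn1c, stood at 5.40 against 6.97 RPKM, the lower member by 2-fold relative to the median gene. Phlda2 and Slc22a18, the neighbours of Cdkn1c, were listed at 0 in both libraries.

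The IGF system, in which Igf2 and Grb10 act, had 17 of 19 measured genes that reached 1 RPKM in either library. As deposited, 5 of them were 2-fold or more higher, against 44.1% of all genes compared, and 0 lower, against 3.55%. With the median gene as zero point the split was 3 and 1, against 14.7% and 11.4% of all genes, and the list median -0.44. Of the 17, Igfbp6, at 3.97 RPKM in positive cells, and Igfals, at 1.69 RPKM, were listed at 0 in negative cells, where a 0 can be a failed estimate, and both count among the higher. Receptors lay low: Igf1r, the receptor that carries the signal of both IGFs, stood at 4.97 against 6.50 RPKM, and Igf2r, the imprinted receptor that clears IGF2, at 5.47 against 5.82 RPKM. Igf1, the other ligand, stood at 1.96 against 1.36 RPKM, below Igf2 in both libraries. Binding proteins, which hold IGFs outside the cell, were the most abundant part. Igfbp4 stood at 538 against 409.8 RPKM, Igfbp7 at 223 against 92.3 RPKM, Igfbp3 at 37.3 against 30.5 RPKM and Igfbp5 at 36.5 against 35.97 RPKM. Igfbp2 differed most, at 20.1 against 0.33 RPKM. Its ratio of 61.5 equals 63 reads to 1 after the depth difference, with an interval of 10.6 to 2465. Read numbers estimated from the shortest transcript were about 44 and 1, with an interval of 7.31 to 1733. Igf2bp3, which binds Igf2 and H19 RNA, stood at 7.97 against 3.38 RPKM, and Igf2bp1 was listed at 0 in both.

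Factors that keep imprints after fertilisation were also listed, and 6 of 9 reached 1 RPKM in a library. As deposited none of the 6 was 2-fold higher, against 44.1% of all genes compared, or lower, against 3.55%. Relative to the median gene all 6 lay below 0, with a median of -0.36, whereas most of all genes compared lay above 0. None was 2-fold higher on that scale, against 14.7% of all genes, and 1 was lower, against 11.4%. This was Zfp445, a zinc finger gene that protects imprints, at 2.52 against 3.69 RPKM and -1.14 on the log2 scale. Trim28, the corepressor recruited to imprinted regions, stood at 90.8 against 67.2 RPKM and Uhrf1, which guides maintenance methylation, at 51.4 against 27.1 RPKM. Ctcf, the insulator protein that binds between Igf2 and H19, stood at 8.53 against 8.24 RPKM. Dnmt1, the maintenance methyltransferase, stood at 7.04 against 3.57 RPKM, which is the ratio of the median gene. The zinc finger gene Zfp57 was listed at 0 in both libraries.

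**Figure D5:**
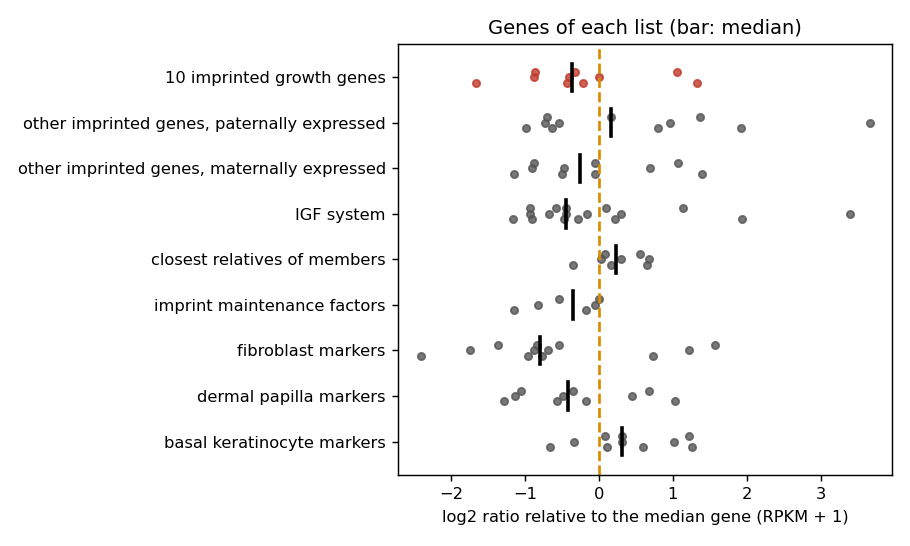
Log2 ratio relative to the median gene (RPKM + 1) for each gene reaching 1 RPKM in either library, by list, with the list median as a black bar. The 10 members (red, median -0.36) lie between -1.66 and 1.32, fibroblast markers have a median of -0.80, dermal papilla markers of -0.42, and basal keratinocyte markers of 0.31.

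Markers of several cell types differed between the libraries, which were not sorted on markers of single cell types. Fewer cells of a type and less RNA per cell cannot be told apart in such samples. With the median gene as zero point, 14.7% of all genes compared were 2-fold or more higher and 11.4% lower. On that scale 2 of 12 fibroblast markers were 2-fold or more higher and 3 lower. Their summed level was 1095 and 1070 RPKM and their median -0.80. Dermal papilla markers summed to 1651 and 792 RPKM, with 1 higher and 3 lower of 10 and a median of -0.42, and pericyte and smooth muscle markers to 168 and 65.8 RPKM, with 1 higher and 3 lower of 8 and a median of -0.44. Within the fibroblast list, Col1a1 stood at 97.9 against 168 RPKM and Dcn at 144 against 43.9 RPKM. Tagln, at 84.5 against 10.1 RPKM, and Acta2, at 47.9 against 16.8 RPKM, made up most of the pericyte and smooth muscle sum in positive cells. Rgs5, Pdgfrb and Mcam of that list had a lower RPKM in positive cells.

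Skeletal muscle markers summed to 67.8 and 30.1 RPKM, with Myh3, Myh8 and Myf5 listed at 0 in both libraries. Acta1, skeletal muscle actin, made up most of that sum, at 53.9 against 22.97 RPKM, and the rest of the list summed to 13.9 and 7.16 RPKM. Of adipocyte markers, Adipoq, Cidec and Retn were listed at 0 in both libraries, and the list summed to 416 and 240.02 RPKM, of which Cebpa made up most. Endothelial markers summed to 26.0 and 3.99 RPKM, with Emcn listed at 0 in both. Egfl7 made up most of that sum in positive cells, at 16.5 against 0.32 RPKM, and Kdr was lower there, at 0.21 against 0.28 RPKM. Schwann cell and melanocyte markers summed to 288 and 194 RPKM. Basal keratinocyte markers summed to 2813 and 906 RPKM, and macrophage and mast cell markers to 1547 and 155 RPKM. The last sum includes Lyz2, lysozyme, at 772 RPKM in positive cells and a listed 0 in negative cells. Without it the sums were 776 and 155 RPKM. Erythrocyte markers went the other way, at 16377 and 283754 RPKM. All these sums are as deposited. Against the median gene, Schwann cell and melanocyte markers had a list median of -0.31, with 7 of 8 below 0. List medians were -0.14 for skeletal muscle, 0.31 for basal keratinocyte, 0.61 for endothelial and 0.71 for adipocyte markers. They were 2.95 for macrophage and mast cell and -5.40 for erythrocyte markers. Each of the endothelial, adipocyte and macrophage and mast cell medians counts 1 gene listed at 0 in negative cells. The part of these differences in the values of the 10 members was not tested.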

How the data were processed

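Polyadenylated RNA was measured in 1 library each of ZIP10-positive and ZIP10-negative cells; per the labels' protocols, 10 ng of total RNA went into each library and single reads of 50 bases were sequenced. The authors deposited 1 table of RPKM values per gene symbol, a unit taken from the table's name. Per the submitters' processing notes, the tools were cutadapt, TopHat and Cufflinks and the build was mm9; their versions, order, annotation and use of strand: not given in the sources used here. Values of overlapping genes and near-identical copies are uncertain.

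From the deposited values log2((positive + 1)/(negative + 1)) was computed for 12249 genes that reached 1 RPKM in either library, and relative to the median gene after dividing its log2 shift of 0.98 between the libraries. Genes 2-fold apart were counted by size, and the script was tested on simulated data. Named are all members and their relatives, and from the other gene lists up to 4 abundant genes and genes 2-fold apart relative to the median gene at 10 RPKM or more. Neighbours and genes chosen by role were named with values known. Of the cell type markers only a few are named, and others that were 2-fold apart at 10 RPKM or more are not. The members and the 15 other lists were chosen with earlier results of these data known.

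Depth was estimated. Among 1389 genes at 1 RPKM or less, 64.7% had a ratio of whole numbers up to 20 times a fixed number, 0.975 (tolerance 0.0012%). Transcript lengths (GENCODE vM21, less 199 bases) of 128 single-transcript genes, 28.9% of which fell within 1.4% of the commonest estimate, then gave about 2.78e+06 reads in positive and 2.71e+06 in negative cells. Whole reads are the fewest that give a ratio, which real numbers may exceed by a whole factor. Intervals are exact Poisson (levels), Clopper-Pearson (ratios) and conditional (quotients), all 95%; reads carry no molecular identifiers. Python 3.11.15, pandas 2.3.3, numpy 2.4.6, scipy 1.17.1 and matplotlib 3.10.9 were used. Alternatives were pseudocounts of 0.1 and 5, other filters and other scalings.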

Additional observations from a re-analysis of the deposited data

How the results depend on the processing

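As deposited, 2 members were 2-fold higher and none lower; with a pseudocount of 5, or with genes at 1 RPKM or more in both libraries, which leaves out Meg3, 1 was higher, and none was lower under any setting tried. The members' median of 0.29 became 0.45 with a pseudocount of 0.1 and 0.11 with 5. With the median gene as zero point, 2 were higher and 1 was lower. With a pseudocount of 5, where Meg3 stood at 0.45, or with the filter in both libraries, 1 was higher. Scaling to genes outside the 50 most abundant, or to the median of genes at 10 RPKM or more in both libraries, gave 1 higher and 3 lower, as Meg3 came to 0.85 and 0.96 and Igf2 and Cdkn1c passed -1. Scaling without globin genes and Rn45s gave 0 higher and 3 lower, with H19 at 0.92 and Meg3 at 0.78. The median of -0.36 became -0.49 with a pseudocount of 0.1, -0.15 with 5, and -0.57, -0.46 and -0.63 under these scalings in turn. No direction of H19, Meg3 or Grb10 turned under these alternatives. Depth limits Dlk1, Peg3, Plagl1, Mest and Rian most, and the length assumed decides whether the intervals of Igf2 and Meg3 include the median gene and whether that of the Meg3 and Dlk1 quotient includes 1. Quotients on the longest transcripts, and marker sums without Lyz2 or Acta1, were chosen after seeing the data. No paired analysis was possible because each group has 1 library.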
